A study of Homo sapiens with 4 samples.

Results

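The alkaline phosphatase gene family was examined in the human melanoma line A375, an established cell line that the labels give as WT. The family was taken as 4 listed genes, ALPP, ALPG, ALPI and ALPL, out of 56832 genes in the deposited table. ALPG is listed there under its older symbol ALPPL2. All 4 libraries came from this one line: 2 from cells given 1 mM octanoate, a saturated medium-chain fatty acid, and 2 from cells given its isopropanol vehicle, each for 48 h. The labels do not say that the 2 libraries of a group came from separate cultures, so p-values measure only the spread between these libraries. The family was chosen by measured values, namely the low ALPP counts under octanoate relative to vehicle, so the octanoate and vehicle values of the 4 genes are a description and carry no test.

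Alkaline phosphatases are dimeric zinc and magnesium enzymes that remove phosphate from many substrates and sit on the outer face of the plasma membrane, held by a glycosylphosphatidylinositol (GPI) anchor. ALPP encodes the placental enzyme, ALPG the placental-like enzyme of germ cells, and ALPI the enzyme of the intestinal brush border. ALPL encodes the tissue-nonspecific enzyme of bone, liver and kidney, which breaks down pyrophosphate and pyridoxal phosphate. The placental and germ cell enzymes are also known as antigens of germ cell and other tumours.

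The 3 tissue-restricted genes form a cluster on the plus strand of chromosome 2. In GENCODE 29 (GRCh38) ALPP lies at chr2:232378534-232382889, ALPG at chr2:232406843-232410714 and ALPI at chr2:232456123-232460032. The principal transcript of each has 11 exons. ALPL lies apart, at chr1:21509372-21578412 on the plus strand, with 12 exons in the transcript used here. Over aligned coding bases ALPP was 97.8% identical to ALPG, with 35 differing bases of 1599, and 89.7% identical to ALPI. ALPP and ALPL were 64.6% identical over 1550 aligned bases.

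The likeness of ALPP and ALPG bears on how reads can be assigned, so a stretch that does not separate them is shown. The longest stretch of coding sequence without a difference had 339 bases, at coding bases 957 to 1295 of ALPP. It runs from exon 8 to exon 10, within chr2:232380714-232381353 on the plus strand (GRCh38), and its first 150 coding bases are printed.
ALPP and ALPG: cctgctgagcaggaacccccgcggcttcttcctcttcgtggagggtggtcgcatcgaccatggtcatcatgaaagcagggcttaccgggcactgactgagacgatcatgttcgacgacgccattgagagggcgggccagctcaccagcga
A read that falls inside the identical stretch matches both genes equally.

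**Figure D1:**
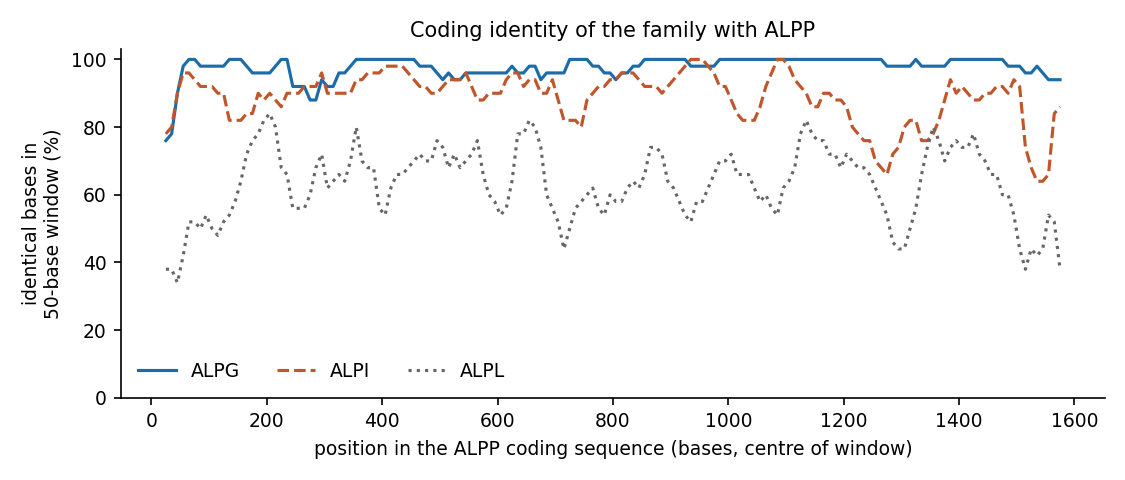
Share of identical bases (%) in 50-base windows along the ALPP coding sequence (bases), for ALPG (solid line), ALPI (dashed line) and ALPL (dotted line). Whole-sequence identities are 97.8% for ALPG, 89.7% for ALPI and 64.6% for ALPL. ALPG dips at the start and again before base 350, where ALPI lies above it in some windows, and ALPL is lowest over nearly all of the sequence.

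The read length is not given in the sources used here, so exact matches were counted for 3 window lengths. Of all 50-base windows of the ALPP transcript, 25.4% also occurred in a transcript of another family member, and 13.2% of 100-base windows did. Of the 742 shared windows, 730 lay wholly within the coding part, where 46.8% of 50-base windows were shared with the family, while none of the 1045 windows wholly within the 3′ untranslated region was. The ALPG transcript shared 29.3% of its 50-base windows with the family. ALPI shared 1.52%, and no 50-base window of ALPL occurred in a transcript of any other gene. Counted against transcripts of any other gene, the share of ALPP was 32.4%, and those of ALPG and ALPI were unchanged. ALPP has a further partner: the antisense gene AC068134.1 lies on the minus strand over 631 of its 3059 exon bases (20.6%). Whether counting used strand is not given in the sources used here, so reads of ALPP and of its antisense partner cannot be told apart there. Transcripts of AC068134.1 also matched 195 of the 2444 50-base windows of ALPG, on either strand.

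The start regions of the 3 clustered genes were alike as well. In the RefSeq windows (GRCh38.p14), which run from 250 bases before a start to 50 bases after it, ALPP and ALPG were identical at 84.1% of 295 aligned bases, and ALPP and ALPI at 66.5% of 266. All 4 genes matched, ALPL with 3 start windows. The 30 bases round a TTTAAA element that the 3 clustered genes share are printed below with the element in capitals. It lies 30 to 25 bases before the RefSeq start in ALPP and ALPG and 28 to 23 bases before it in ALPI.
ALPP, chr2:232378709-232378738, plus strand: agttctccctgaTTTAAAcccgggcagcct
ALPG, chr2:232406802-232406831, plus strand: agttttccctgaTTTAAAcccaggcagcct
ALPI, chr2:232456113-232456142, plus strand: gtcctcccctgaTTTAAAcccaggcagcct
This motif was chosen after the windows were read. Counted on both strands, it occurs in 12.2% of 35116 RefSeq windows of the same length. One of the 3 ALPL windows instead held TATAAA, 29 bases before the start, a motif found in 11.5% of all windows and in none of the other family windows. The same ALPL window held 4 matches to the GC box GGGCGG, ALPG and ALPI 1 each, and ALPP none, where 45.0% of all windows hold it. The AP-1 motif TGANTCA (7.71% of all windows), CCAAT (34.6%) and the PPAR-RXR direct repeat of AGGTCA with a spacer of 1 base (0.0228%) had no match in any of the 6 family windows. The motif TGATGNAA (3.62%) matched once, in another ALPL window. The E-box CANNTG (68.7%) matched 3 times in ALPP, once in ALPG and in 2 of the ALPL windows. The TGATGNAA match overlaps an E-box match in the same ALPL window. A match is a string of letters, not a site of binding.

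The libraries held between 67785956 and 78005035 recovered reads. The labelled cell type was checked against marker genes. The neural crest and melanocyte factor SOX10 had 34072 to 41363 normalised counts and the melanoma antigen PRAME 11765 to 14011, while the pigment genes MLANA and PMEL stayed at or below 98.2 and TYR at or below 3.93. The 4 leukocyte markers summed to 8.66 to 19.6 normalised counts per library. The 5 fibroblast markers summed to 1314 and 1316 in vehicle and 1121 and 1106 in octanoate, and the 4 epithelial markers, mostly the keratin genes KRT8 and KRT18, to 14401 to 17692. Some markers moved with treatment. Of 9 tested melanoma markers 1 was called higher and 3 lower. MITF, the melanocyte factor gene, fell from 3533 and 3330 to 2414 and 2511 (limma adjusted p 2.33e-06). The neural crest marker S100B fell from 4234 and 3741 to 1917 and 1746 (limma adjusted p 9.15e-12). PRAME was also lower (limma adjusted p 0.0247). PMEL rose from 65.8 and 65.9 to 98.2 and 95.4 (limma adjusted p 0.0289). Among the fibroblast markers COL1A1 and COL1A2 were called lower (limma adjusted p 3.63e-05 and 0.0394). The 4 keratinocyte markers summed to 6714 and 5683 in vehicle and 6447 and 4793 in octanoate. Among them KRT14 fell from 1110 and 942 to 266 and 218 (limma adjusted p 2.40e-13), KRT10 was not called, and KRT5 and TP63 had at most 12.8 and 10.8. The part of these markers in the results was not tested.

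ALPP was the most abundant family member in vehicle and was lower under octanoate. Its normalised count was 327 and 293 under vehicle and 64.5 and 30.3 under octanoate. Both octanoate libraries lay below both vehicle libraries. As a ratio of replicate 1 to replicate 2, the octanoate libraries differed more (2.13) than the vehicle libraries (1.12), while the SDs of the normalised counts were alike. The means were 310 ± 24.2 (SD, n = 2) and 47.4 ± 24.1 (SD, n = 2), 6.53-fold lower under octanoate, and the log2 difference was -2.78 (SE 0.22). In a bulk sample, fewer cells that express a gene and less RNA per cell cannot be told apart. The values rest on 333 and 302 reads in vehicle, and on 67 reads (exact Poisson 95% interval 51.9 to 85.1) and 28 reads (18.6 to 40.5) in octanoate. These intervals cover counting error only, since reads without molecular identifiers are not independent molecules.

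The size of the ALPP difference depended on which octanoate library was used. It was 4.80-fold without octanoate 2 and 10.2-fold without octanoate 1, the latter more than 1.5 times the value from all libraries. The 2 octanoate libraries stood 1.06 apart on the log2 scale for ALPP. Among the 3506 tested genes whose octanoate mean was within 2-fold of that of ALPP, the median gap between the same libraries was 0.24, and 0.998% of these genes had a gap as wide. In vehicle the gap was 0.16 for ALPP, and 32.7% of the genes of like level had one as wide. By mean level, 38.9% of the 20250 tested genes were less abundant than ALPP, and 9 had a lower log2 difference. The family was chosen by these same differences, so the latter rank is only a description.

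**Figure D2:**
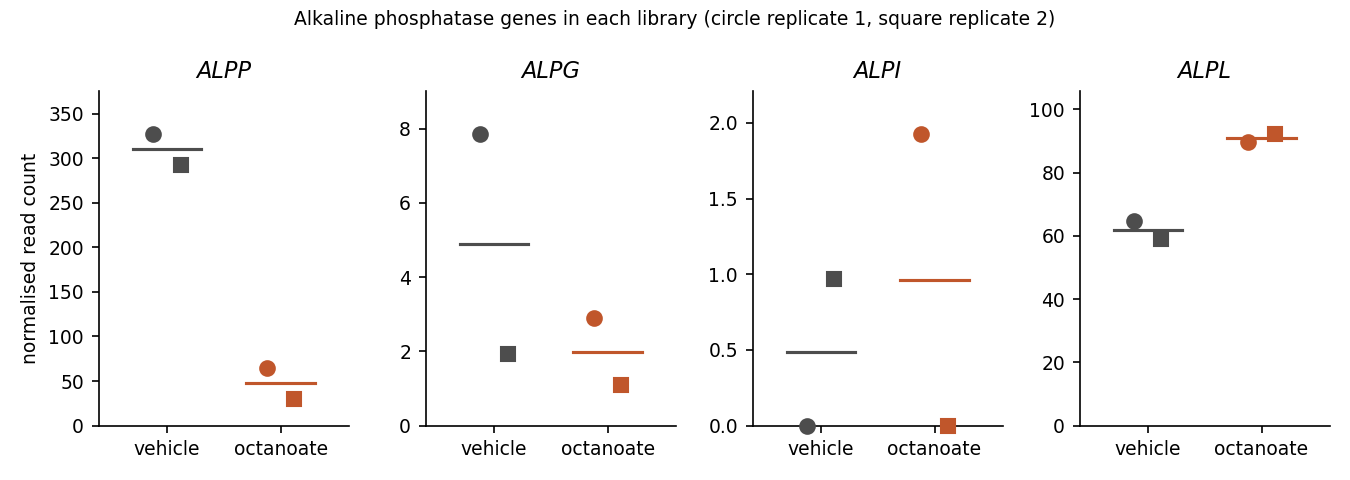
Normalised read count of ALPP, ALPG, ALPI and ALPL in each library, with the mean of the 2 libraries of a group as a line. Circles are replicate 1 and squares replicate 2, and each panel has its own axis from 0. The groups do not overlap for ALPP and ALPL, and they do for ALPG and ALPI, whose values rest on 8 reads or fewer.

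ALPG, the nearest relative of ALPP, was close to the limit of detection in every library. Its normalised count was 7.85 and 1.94 in vehicle and 2.89 and 1.08 in octanoate, from 8, 2, 3 and 1 reads. The groups overlap. The ratio of octanoate to vehicle over the pooled reads was 0.418, with a counting interval from 0.0957 to 1.45, so no difference was detectable at this depth. Without vehicle 2 the vehicle level was 3.95-fold that of octanoate, and without vehicle 1 it was 0.976-fold.

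Because reads may be split between ALPP and ALPG where the genes match, their counts were also summed. If reads that match both genes were dropped in counting, the sum and the shares below do not hold them. The sum was 335 and 295 in vehicle and 67.4 and 31.4 in octanoate, with means of 315 ± 28.4 and 49.4 ± 25.4 (SD, n = 2 each) and a log2 difference of -2.74. ALPP held 97.7% (exact Clopper-Pearson 95% interval 95.4 to 99.0) and 99.3% (97.6 to 99.9) of the pair's reads in vehicle. In octanoate it held 95.7% (88.0 to 99.1) and 96.6% (82.2 to 99.9). The interval of octanoate 2 holds both vehicle shares, and that of octanoate 1 holds the share of vehicle 1 but not that of vehicle 2. These intervals cover counting error only, and a change in the split was not tested.

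ALPI had at most 2 reads in any library. The vehicle libraries held 0 and 1 reads and the octanoate libraries 2 and 0. A count of 0 allows up to 3 reads, or 2.94 normalised counts in vehicle 1 and 3.25 in octanoate 2. No fold is given, because both groups lie under that limit.

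ALPL went the other way from ALPP. Its normalised count was 64.8 and 59.1 in vehicle and 89.5 and 92.1 in octanoate. Both octanoate libraries lay above both vehicle libraries, with a narrow spread within each group. The means were 61.9 ± 4.02 and 90.8 ± 1.84 (SD, n = 2 each), 1.47-fold higher under octanoate, and the log2 difference was 0.55 (SE 0.19). The reads behind these values were 66, 61, 93 and 85. Leaving out single libraries gave values between 1.40-fold and 1.54-fold.

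Per kilobase of exon the order of the genes differed between the groups. The normalised count per kilobase in vehicle was 101 ± 7.92 for ALPP, 20.6 ± 1.34 for ALPL, 1.96 ± 1.68 for ALPG and 0.184 ± 0.260 for ALPI (SD, n = 2 each). In octanoate the level per kilobase was 30.2 ± 0.612 for ALPL, 15.5 ± 7.89 for ALPP, 0.797 ± 0.512 for ALPG and 0.366 ± 0.517 for ALPI. By this measure ALPP was first in both vehicle libraries and ALPL in both octanoate libraries. The whole exon length was used, although 32.4% of the 50-base windows of ALPP also occur in other genes. How reads there were counted is not given, so the order of ALPP and ALPL may depend on it. The gap was smallest in octanoate 1, at 29.8 for ALPL and 21.1 for ALPP. In vehicle both ALPG libraries, at 3.15 and 0.777, lay above both ALPI libraries, at 0 and 0.368, and in octanoate the genes overlapped. These levels rest on at most 8 reads per library.

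ALPP and ALPL passed the filter of a mean normalised count of at least 10, and ALPG and ALPI did not. Across all 20250 tested genes limma called 29.9% (threshold: adjusted p of 0.05), of all tested genes 16.2% as higher and 13.7% as lower, and the groups did not overlap for 63.1%. ALPP met this rule as lower and ALPL as higher, and nothing is read from this count, since the same contrast chose the family. The rule was also applied under 14 alternative settings. These refit the same 4 libraries that chose ALPP, so meeting it under them carries no test. ALPL missed it under 6 of the 14: with no filter, with DESeq2 on recovered reads, and without any one of the 4 libraries. The authors' deposited table lists ALPP with a log2 fold change of -2.69 (SE 0.29) and ALPL with one of 0.55 (SE 0.34). By an adjusted p under 0.05, which 12.9% of the 33533 genes in the authors' deposited table reach (6.89% as higher and 6.01% as lower), ALPP passed and ALPL did not. ALPG is listed there at -1.29 (SE 1.64) and did not pass, and ALPI has no row in the authors' deposited table. Those values rest on the same 4 libraries, so passing there carries no test either.

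**Figure D3:**
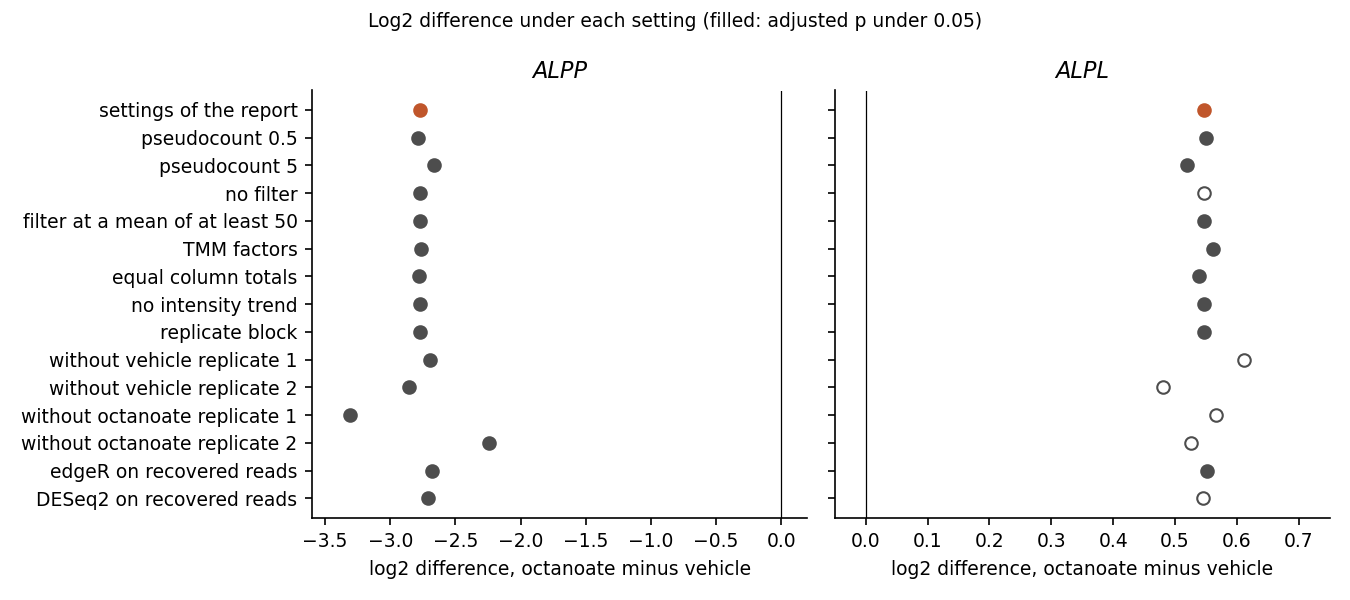
Log2 difference of ALPP (left) and ALPL (right) under each setting, octanoate minus vehicle, with filled points for an adjusted p under 0.05 and open points otherwise. Orange marks the settings of the report. All settings refit the libraries that chose ALPP, so filled points carry no test. ALPP lies between -3.31 and -2.24 in all settings, and ALPL between 0.48 and 0.61, with 6 open points.

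The genes next to the cluster were compared in the same way. The 4 nearest protein-coding genes on each side were taken from RefSeq. COPS7B, a subunit of the COP9 signalosome, had 2777 and 2530 normalised counts in vehicle and 2842 and 2605 in octanoate. The nearest gene before ALPP, DIS3L2, an RNA exonuclease, had 1627 and 1481 in vehicle and 1628 and 1605 in octanoate, with 0.06 ± 0.07 (SE) as log2 difference (limma adjusted p 0.590). Both genes overlapped between the groups, while the groups did not overlap for 63.1% of all tested genes. Of the 8 neighbours, 5 were tested and 0 were called by limma, by edgeR or by DESeq2. Likewise 0 had an unadjusted limma p under 0.05. Over all tested genes limma called 29.9%, and with 5 tested neighbours nothing is read from this count. The 3 nearest genes after ALPI, which are ECEL1, PRSS56 and CHRND, had at most 1.94 normalised counts in any library.

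Near ALPL, all 8 neighbours were tested and 3 were called higher, with a median log2 difference of 0.09 beside 0.01 over all tested genes, of which 29.9% were called and 16.2% called higher. RAP1GAP, a GTPase activator for RAP1 and the next gene after ALPL, rose from 365 and 348 normalised counts to 535 and 526, with 0.57 ± 0.10 (SE) as log2 difference (limma adjusted p 6.80e-05). On the log2 scale NBPF3, the next gene before ALPL, rose by 0.31 ± 0.08 (SE; limma adjusted p 0.00332), with an adjusted p of 0.0712 without vehicle 2. HSPG2, which encodes the basement membrane proteoglycan perlecan, rose by 0.37 ± 0.06 on that scale (SE; limma adjusted p 2.32e-05). ECE1 and USP48 were not called, at 0.11 and 0.06.

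**Figure D4:**
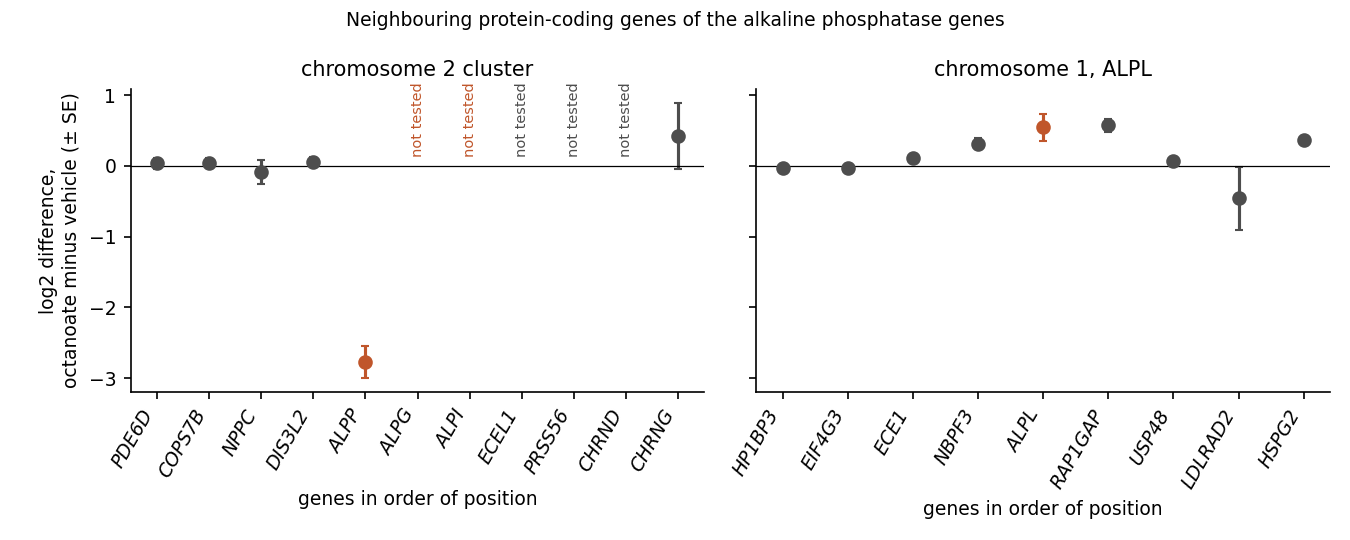
Log2 difference (octanoate minus vehicle, with its SE as bars) of the 4 nearest protein-coding genes on each side of the chromosome 2 cluster (left) and of ALPL (right), in order of position. Family members are orange, and genes under a mean of 10 are marked as not tested. ALPP stands at -2.78 on the left, while ALPL lies beside 2 genes that were called higher.

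Phosphate and pyrophosphate handling is the setting in which ALPL is best known. Of the 20 genes listed for it, 16 were tested, 6 were called higher and 4 lower, with a median log2 difference of -0.02. The counts of this and every other list stand against 16.2% called higher and 13.7% called lower over all tested genes. STC1, which encodes the calcium and phosphate regulating hormone stanniocalcin, rose from 676 and 615 normalised counts to 3142 and 3218, with 2.30 ± 0.07 (SE) as log2 difference (limma adjusted p 2.93e-17). SLC20A1, a sodium-phosphate importer, rose 1.69-fold to 70522 ± 783 (SD, n = 2), with a limma adjusted p of 6.16e-10. PHOSPHO1, the phosphatase that acts beside ALPL in matrix vesicles, rose from 47.1 and 35.8 to 93.4 and 89.95 (limma adjusted p 0.000285).

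Other members of this list moved down. MGP, which encodes an inhibitor of calcification, fell by 3.05 ± 0.16 (SE) on the log2 scale (limma adjusted p 2.92e-13). SPP1, which encodes osteopontin, went from 1193 ± 65.5 to 658 ± 62.4 and the endopeptidase gene PHEX from 413 ± 46.6 to 189 ± 6.53 (SD, n = 2 each; limma adjusted p 2.49e-08 and 7.74e-08). ANKH, which encodes a protein that carries pyrophosphate precursors out of the cell, fell from 16267 and 14329 to 11686 and 11167 (limma adjusted p 1.25e-05). ENPP1, the ectoenzyme that makes the pyrophosphate that ALPL removes, was not called, at 602 and 546 in vehicle and 494 and 567 in octanoate.

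Among osteoblast regulators linked with ALPL, 5 of 16 tested genes were called higher and 4 lower, with a median log2 difference of -0.09. The bone morphogenetic protein genes BMP6 and BMP2 rose 3.56-fold and 2.58-fold (limma adjusted p 3.96e-14 and 1.09e-11), and the homeobox gene DLX3 rose from 17.7 and 9.69 to 87.6 and 94.3 (limma adjusted p 1.60e-07). RUNX2, the central osteoblast transcription factor, fell from 435 and 400 to 287 and 315, with -0.47 ± 0.11 (SE) as log2 difference (limma adjusted p 0.00153). It was chosen after its values were seen. VDR, TWIST1 and RARB fell by 0.37, 0.49 and 0.79 on the log2 scale (limma adjusted p 0.000103, 0.000134 and 0.00104).

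ALPL also acts on vitamin B6 phosphates. Of the 5 genes listed for that, AOX1, an oxidase of pyridoxal, was called higher, with 0.85 ± 0.12 (SE) as log2 difference (limma adjusted p 4.88e-06). The pyridoxal kinase gene PDXK was not called, at 0.08. None of the 5 was called lower. Among fits that leave out 1 library, 1 gene was called lower without vehicle 2 and likewise without octanoate 1: the pyridoxal phosphatase gene PDXP, named after its values were seen.

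Genes listed for acid phosphatases and for extracellular nucleotide breakdown moved in both directions. Of 12 tested genes, 2 were called higher and 3 lower, with a median of -0.12. The lists overlap: NT5E, called higher here, is also counted in the phosphate list and among other GPI-anchored surface proteins. NT5E, which encodes the GPI-anchored nucleotidase CD73, rose from 6228 ± 69.8 to 14662 ± 481 (SD, n = 2 each; limma adjusted p 2.67e-14). ACP3, listed as ACPP and encoding prostatic acid phosphatase, rose from 253 and 218 to 600 and 671 (limma adjusted p 2.69e-10). ACP5, the tartrate-resistant acid phosphatase gene, fell from 1294 and 1166 to 810 and 797 (limma adjusted p 1.74e-06), and ACP6 and PXYLP1 fell by 0.25 and 0.16 on the log2 scale (limma adjusted p 0.00551 and 0.0336). These last 2 calls depended on single libraries: without vehicle 1 the adjusted p was 0.168 for ACP6, and without any one of the 4 libraries it was 0.0726 or more for PXYLP1. Without vehicle 1, 1 gene of this list was called lower in place of 3.

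The GPI anchor that holds these enzymes is built and attached by a separate set of genes. Of 30 tested, 5 were called higher and 5 lower, with a median log2 difference of 0.01. These counts are near the 16.2% called higher and 13.7% called lower over all tested genes. PIGA, the catalytic subunit of the first step, went from 2619 ± 74.5 to 1983 ± 0.486 (SD, n = 2 each; limma adjusted p 3.20e-05), and PIGL, of the second step, rose 1.44-fold (limma adjusted p 3.71e-05). These counts depended on single libraries: without vehicle 1, 2 genes were called higher and 1 lower, without vehicle 2, 1 was called higher, without octanoate 1, 2 were called higher, and without octanoate 2, 2 were called higher and 3 lower. Other GPI-anchored surface proteins were called higher in 23 of 43 tested genes and lower in 6, with a median of 0.25 beside 0.01 over all tested genes. The count of lower genes is near the 13.7% over all tested genes, and 16.2% of those were called higher. The counts include CD52 and GFRA1, chosen after their values were seen, which had a mean under 10 in 1 group. CD55, a complement inhibitor, rose from 7230 and 6946 to 22695 and 23494 (limma adjusted p 5.51e-17), and LYPD3 rose from 479 and 399 to 2228 and 2050 (limma adjusted p 9.44e-16). RGMA, LYPD1 and GAS1 fell by 0.85, 0.53 and 0.81 on the log2 scale (limma adjusted p 0.000292, 0.000680 and 0.000835). Without vehicle 1 the adjusted p of GAS1 was 0.0584, and 3 genes of this list were called lower in place of 6.

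Genes of the tissues that normally make ALPP, ALPG and ALPI were mostly at low counts. Of 34 placental and germ cell genes 16 were tested, 4 of them called higher and 3 lower, with a median of -0.07. The trophoblast factor gene TFAP2C was abundant and lower, 11720 and 11348 against 10242 and 9859 (limma adjusted p 0.00914), with an adjusted p of 0.0732 without vehicle 1 and 0.113 without octanoate 2. GATA3 went from 406 ± 34.9 to 269 ± 26.5 and the keratin gene KRT7 from 278 ± 13.3 to 509 ± 36.0 (SD, n = 2 each; limma adjusted p 0.000260 and 6.08e-07). HSD3B1, a steroid dehydrogenase gene of the placenta, was at 4.91 and 0 in vehicle and at 50.1 and 48.8 in octanoate and passed the filter only through octanoate, so no p-value is given for it. The called counts include it and DDX4, a germ cell RNA helicase gene chosen after its values were seen, which was under a mean of 10 in octanoate. DDX4 passed the filter only through vehicle, so no p-value is given for it either. Its log2 difference was -1.75, and it was -1.03 without vehicle 2 and -1.18 without octanoate 1. The placental regulator GCM1 had at most 5.42 normalised counts, and SOX17 was listed at 0 in all libraries.

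Of 24 enterocyte genes 23 were found and 8 tested, and 5 were called higher, with a median log2 difference of 0.51. KLF4 and KLF5, zinc finger factors, rose 2.19-fold and 1.47-fold and the aminopeptidase gene ANPEP 1.37-fold (limma adjusted p 3.27e-12, 5.73e-08 and 1.81e-06). CDX1 was listed at 0 in all libraries and CDX2, the other intestinal homeobox gene, had at most 1.93 normalised counts.

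**Figure D5:**
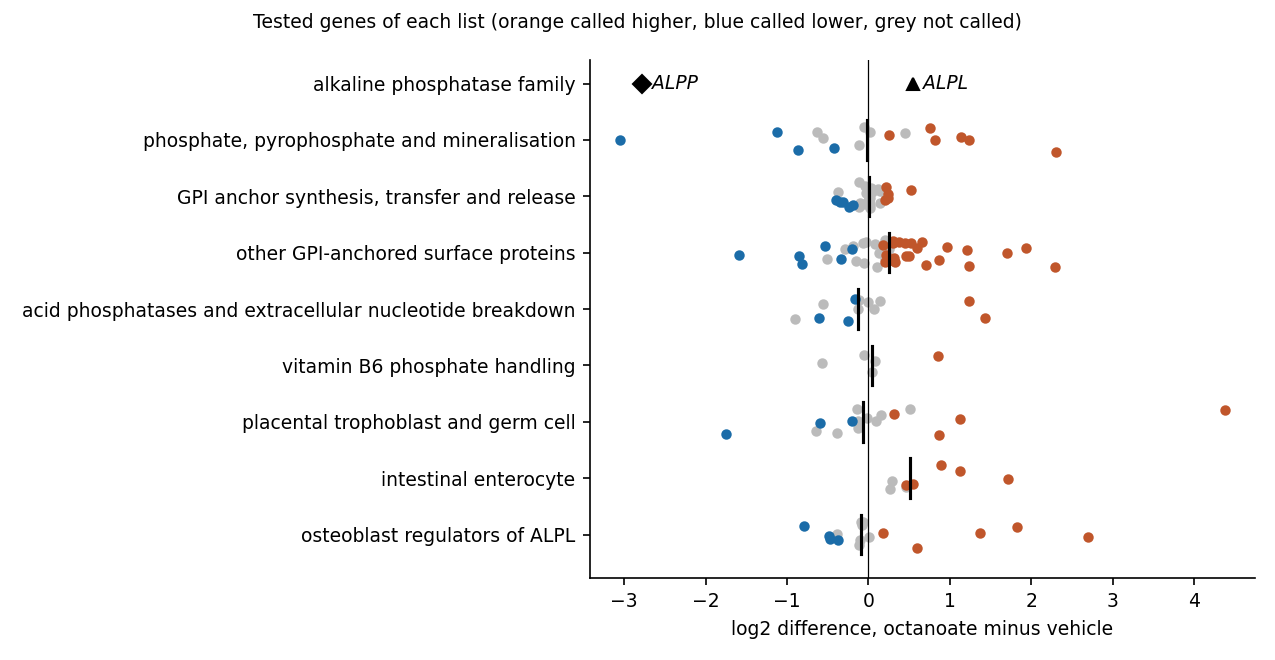
Log2 difference (octanoate minus vehicle) of each tested gene in 8 lists, with the list median as a black line and ALPP and ALPL in the top row. Called genes lie on both sides of 0 in 6 of the lists, and only on the higher side in the vitamin B6 and enterocyte lists.

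The genes nearest to each tested member in pattern were found by the root mean square distance of log2(normalised count + 1) over the 4 libraries, after centring on vehicle. For ALPP these were B3GALT2, LRRC53 and CCL2, at distances of 0.18, 0.20 and 0.31. LRRC53 had 23.6 and 27.1 normalised counts in vehicle but at most 3.85 in octanoate. It passed the filter only through vehicle, so its likeness to ALPP rests on few reads in octanoate. In B3GALT2, a galactosyltransferase gene, the counts were 217 and 211 in vehicle and 49.1 and 26.0 in octanoate. Its lower library was octanoate 2 as for ALPP. The choice by distance over the same 4 libraries favours this, so nothing is read from it. The chemokine gene CCL2 had 226 and 230 in vehicle and 52.9 and 33.6 in octanoate. For ALPL the nearest were LGMN, RP11-266K4.9 and RPS6KA2, at 0.0065, 0.0081 and 0.010. LGMN, which encodes the lysosomal protease legumain, had 1210 and 1092 in vehicle and 1658 and 1701 in octanoate.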

How the data were processed

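The deposited signal per gene and library is a read count that the authors divided by 1 size factor per library with DESeq2, per the file name. The submitters' processing notes name STAR 2.4, HTSeq 0.9.1 and hg38; annotation, strand setting and read length are not given in the sources used here. Every positive value was a whole multiple (within 0.001) of the smallest of its library (100% of values), so whole reads were recovered, 67785956 to 78005035 per library. The authors' deposited table gives log2 fold changes with standard errors, the test statistic (a score), and p-values before and after adjustment.

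Octanoate was compared with vehicle by limma 3.58.1 (R 4.3.3), using values of log2(normalised count + 1). The prior on the variance followed mean intensity, and treatment was the only term. The fit covered 20250 genes with a mean of at least 10, with Benjamini-Hochberg adjustment and a call at an adjusted p under 0.05. Differences on this scale understate changes of low counts. An exact permutation test of 2 against 2 libraries cannot reach 0.05. The fit was tested on simulated counts. Members, gene lists and tests were chosen with earlier results of these data known. In each list the text names at most 3 called genes per direction by smallest p, genes at or near 0, and a few background genes such as ENPP1, PHOSPHO1, ANKH and RUNX2 that were picked for their role after their values were seen. Recovered reads were also fitted with edgeR 4.0.16 and DESeq2 1.42.0. Sequences came from GENCODE 29 and RefSeq, searched with blastn 2.17.0 and aligned with biopython 1.88. The gene CDHR2 was not found in the table.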

Additional observations from a re-analysis of the deposited data

How the results depend on the processing

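The log2 difference of ALPP ranged from -3.31 to -2.24 over 14 alternatives and that of ALPL from 0.48 to 0.61, with no change of direction; leaving out single libraries gave both ends for ALPP and ALPL. The sum of ALPP and ALPG ranged from -3.28 to -2.20 when single libraries were left out. In all, 6048 genes were called, against 2595 with no filter and 1625 without an intensity trend, and 77 list and neighbour genes against 44 and 31; the cause was not tested. Without single libraries these counts were 4295 to 4757 and 60 to 67. What a replicate number marks is not given in the labels. With a replicate block, 8376 genes and 94 list and neighbour genes were called, among them 1 vitamin B6 gene as lower, against 0, and the log2 difference was -2.78 for ALPP and 0.55 for ALPL; the replicate differences of both groups correlated across genes at 0.13. Of 84 called list and marker genes, 31 stayed called in all alternatives that tested them and 0 changed direction; no filter and no intensity trend each ended the call of TFAP2C, GAS1, NBPF3, ACP6, PXYLP1, TWIST1 and RARB, and no intensity trend alone that of HSPG2, PIGA, ANPEP, VDR, LYPD1, GATA3, RUNX2 and ANKH. At the lowest, 1 GPI anchor gene was called, against 10, and 10 other GPI-anchored proteins, against 29. ALPG and ALPI were limited by depth, with at most 8 reads per library.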
